A study of Mus musculus with 4 samples.

Results

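Keratins are the intermediate filament proteins of epithelial cells. A filament is built from pairs of a type I and a type II keratin, and the pair in use marks the kind of epithelium: Krt8 with Krt18 in simple epithelia, Krt5 with Krt14 in the basal layer of stratified epithelia. In the mammary gland the luminal cells that line the ducts are known for Krt8, Krt18 and Krt19, and the surrounding myoepithelial cells for Krt5 and Krt14. The genes described here are 10 keratins, 5 basal or stratified (Krt5, Krt6a, Krt14, Krt15 and Krt17) and 5 simple (Krt7, Krt8, Krt18, Krt19 and Krt20). They were chosen by name out of 18193 genes that have a probe set of their own on the array, and their probe sets are those that the platform annotation pairs with one of these symbols and no other gene. This gave 17 of the 45101 probe sets on the array, 10 for basal or stratified and 7 for simple keratins. A further probe set, annotated to Krt17 and Krt14 together, was left out.

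The study measured total RNA of 4T1 cells, a mouse breast cancer line, on one-colour Affymetrix arrays. There were 2 arrays of CD44v8-10-positive and 2 of CD44v8-10-negative cells, where CD44v8-10 is a form of the adhesion receptor CD44 that carries variant exons. Both groups were grown in RPMI medium with 10% bovine serum under normoxia and picked by hand under a dissecting scope, with no genotype difference or drug treatment named in the labels. How CD44v8-10 was detected is not given in the sources used here, and nothing in the labels says that replicates came from separate cultures, so that each p-value covers no more than the differences among these 4 samples, and those could be technical. With 2 arrays in each group, the number of arrays limits the precision of every value.

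The arrays were not equally bright, with 2% trimmed mean intensities of 196 to 345, and were quantile normalized before comparison. All 6 epithelial markers examined (Epcam, Cdh1, Cldn7, Krt8, Krt18 and Krt19) passed the filter on dim probe sets, as did 5 of 9 luminal mammary markers on the array, while Elf5, Kit, Csn2 and Wap did not. Of the epithelial markers Epcam, an adhesion molecule of epithelial cells, rose by 1.34 on the log2 scale (limma adjusted p 0.0118), with 2310 and 2480 in the positive samples against 940 and 930. Cldn7, a tight junction claudin, rose by 2.31 (limma adjusted p 0.000639), with 1150 and 904 against 203 and 184, and Cdh1, the epithelial cadherin, had overlapping signals. Summed over the 6 markers the signal was 27900 and 29500 against 22200 and 27100, without overlap. Krt8, Krt18 and Krt19 are themselves among the 10 keratins described, and Krt18 and Krt8 were the largest parts of this sum on every array. The sum is therefore not a measure separate from the keratins. Pearson correlations between arrays over the tested genes ran from 0.968 to 0.985, and the highest joined positive replicate 1 with negative replicate 1, arrays of different groups.

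Krt14 was the one keratin of the 10 that rose in CD44v8-10-positive cells by the test used, by 3.91-fold (95% interval 2.72 to 5.62). Krt7 and Krt19, both simple keratins, had signals above those of the negative cells on both positive arrays, with folds of 1.41 and 1.48 that did not pass. Krt8 and Krt18, the core pair of simple epithelia, had folds of 1.04 and 1.06 with overlapping signals. The rest of the basal set was near or below the level at which probe sets were left out of the tests. All differences were fitted in limma on log2(signal + 16), two-sided, over 11956 genes with Benjamini-Hochberg adjustment, which understates the change of dim genes.

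**Figure D1:**
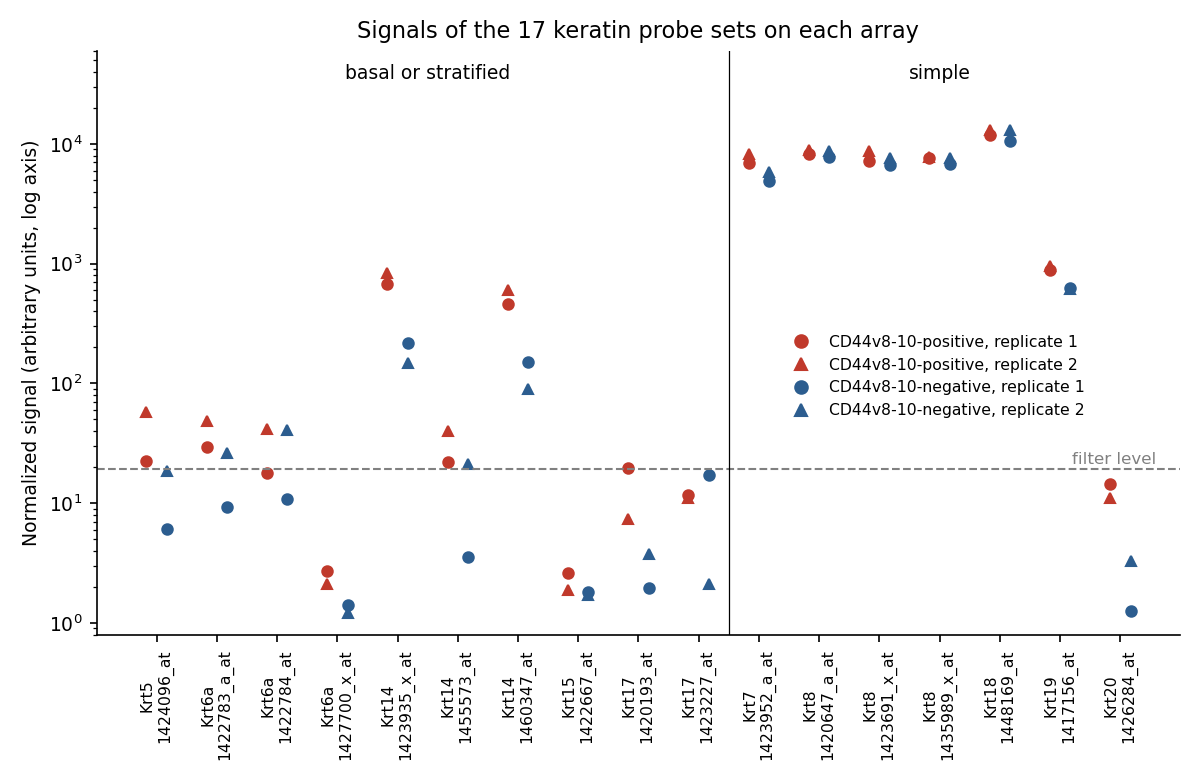
Normalized signal (arbitrary units, log axis) of each of the 17 keratin probe sets on the 4 arrays, with the filter level of 19.4 as a dashed line. Red symbols are CD44v8-10-positive and blue symbols negative arrays; the 2 upper Krt14 probe sets show the positive arrays well above the negative ones, while the symbols of Krt8 and Krt18 overlap. Heights of different probe sets cannot be compared with each other.

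Of the basal or stratified keratins, Krt14 is the type I keratin that pairs with Krt5 in basal and myoepithelial cells. Its main probe set, 1423935_x_at, gave a normalized signal of 681 and 831 with the 2 positive samples and of 218 and 149 with the 2 negative samples. The lowest positive signal was thus above the highest negative one, and the same order held on the deposited values, where the 4 signals were 639.8, 727, 164.1 and 218.8. Group means were 756 ± 106 and 183 ± 48.6 (SD, n = 2 each), and the log2 fold change was 1.97 ± 0.24 (SE; adjusted p 0.00547 by limma). The probe set's suffix marks it as one that may also bind related transcripts. A second probe set of Krt14 without that suffix, 1460347_at, read 461 and 600 against 151 and 89.8 (positive arrays first, here and in every such pair). Its log2 fold change was 2.03 ± 0.28 (SE), close to the first. When all 27022 probe sets above the filter were tested one by one, of which 0.0333% were called higher and 0% lower, the first had a limma adjusted p of 0.0424 and the second of 0.0674. Another, 1455573_at, missed the filter, with signals of 22.1 and 40 against 3.58 and 21.2.

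The size of the Krt14 difference held better than its call. Over 17 alternatives the log2 fold change stayed between 1.74 and 2.22, while the limma adjusted p ran from 2.58e-05 to 1. It was 0.0838 without positive replicate 2, 0.204 with no filter, 0.245 with no intensity trend in the variance and 1 with no scaling between arrays, and under 0.05 in the other 13.

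Krt5, the type II partner of Krt14, was dim on these arrays. Its single probe set read 22.7 and 57.4 against 6.05 and 18.4. Both negative signals lay below the filter level of 19.4, so the gene entered the test through its positive arrays and its fold is no exact size. The log2 fold change was 0.95 ± 0.46 (SE; 95% interval -0.04 to 1.95), with a limma adjusted p of 0.985. The value was 1.67 with a pseudocount of 1 and 0.43 with 64, and without positive replicate 2 the gene missed the filter. Normalization set the order of the samples here: on the deposited values the groups overlapped, with 19.7 and 54.6 against 4.4 and 23.4.

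Krt6a, a type II keratin induced in wounded and activated epidermis, had 3 probe sets that did not give one picture. The one used for the gene, 1422783_a_at, read 29.6 and 48.8 against 9.34 and 26.2. That is a log2 fold change of 0.73 ± 0.42 (SE), with 0.985 as limma adjusted p. The second, 1422784_at, read 17.8 and 41.9 against 10.9 and 40.8, which overlap, and gave 0.18 ± 0.47 (SE). The remaining one read between 1.2 and 2.72 on all arrays. With each array left out in turn the first stayed above 0, between 0.37 and 1.02. The second ran from -0.37 without negative replicate 1 to 0.66 without negative replicate 2, and it was the brighter of the pair, and so stood for the gene, when either positive array was left out. It also stood for the gene with arrays centred on their medians (0.17), with no scaling (0.04) and with arrays scaled to one trimmed mean (0.24). In these settings the first probe set gave 0.73, 0.60 and 0.79.

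Krt17, the type I keratin of skin appendages and wound edges, missed the filter with both of its probe sets. One read 19.8 and 7.38 against 1.95 and 3.78, and the other 11.6 and 11 against 17.1 and 2.12. The groups overlapped in the second and not in the first. Krt15, a type I keratin of basal cells and hair follicle bulge cells, read between 1.7 and 2.62 on every array, well under the filter level. Neither was tested, and no fold is given for them.

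Among the simple keratins, Krt8 and its type I partner Krt18 differed little between the groups. The probe set of Krt18 read 11800 and 13000 against 10600 and 13000. The main probe set of Krt8 read 8220 and 8830 against 7720 and 8690. In both genes the highest negative signal lay above the lowest positive one. The log2 fold change of Krt8 was 0.06 (95% interval -0.23 to 0.34; limma adjusted p 0.99), and the other probe sets of Krt8 gave 0.15 and 0.09. Krt18 had 0.08 (-0.20 to 0.37; limma adjusted p 0.985). As folds these intervals end at 1.27 and 1.29, where that of Krt14 starts at 2.72. Without negative replicate 1 their values were -0.03 and -0.06, and with arrays scaled to one trimmed mean 0.21 and 0.32, with no overlap between the groups.

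Krt8 and Krt18 also neighbour each other in the genome. In the RefSeq gene table of assembly GRCm38.p6 the type II keratin genes form a run on chromosome 15 and the type I genes a run on chromosome 11, but Krt18, a type I gene, stands at the end of the chromosome 15 run beside Krt8. The start sites of the pair are 23874 bases apart and read away from each other. The windows of 250 bases before to 50 after the start of this pair and of Krt7 are shown, since these are the simple keratins with a window whose signals were far above the filter. Capitals mark TATAAA on either strand.
Krt8, chr15:102004293-102004592, minus strand: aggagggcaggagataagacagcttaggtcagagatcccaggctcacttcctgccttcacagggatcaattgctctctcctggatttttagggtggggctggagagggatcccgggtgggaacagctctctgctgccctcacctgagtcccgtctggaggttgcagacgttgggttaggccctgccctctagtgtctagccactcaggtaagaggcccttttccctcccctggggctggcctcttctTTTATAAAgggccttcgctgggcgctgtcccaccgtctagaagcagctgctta
Krt18, chr15:102027966-102028265, plus strand: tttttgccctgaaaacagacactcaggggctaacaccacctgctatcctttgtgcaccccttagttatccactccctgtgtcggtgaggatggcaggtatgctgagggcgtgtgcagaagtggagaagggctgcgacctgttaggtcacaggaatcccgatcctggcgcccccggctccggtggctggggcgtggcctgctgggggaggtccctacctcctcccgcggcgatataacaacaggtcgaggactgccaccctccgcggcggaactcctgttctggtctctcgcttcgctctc
Krt7, chr15:101412153-101412452, plus strand: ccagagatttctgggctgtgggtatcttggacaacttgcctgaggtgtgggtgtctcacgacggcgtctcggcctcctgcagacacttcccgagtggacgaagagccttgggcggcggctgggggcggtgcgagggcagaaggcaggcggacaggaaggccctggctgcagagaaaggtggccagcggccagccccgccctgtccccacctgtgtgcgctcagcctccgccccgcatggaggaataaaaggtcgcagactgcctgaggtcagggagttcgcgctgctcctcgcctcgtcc

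TATAAA occurred in the Krt8 window, in 2 overlapping matches on opposite strands. Their first bases are at -3 and -1 from the listed start, so they lie across it. The windows of Krt18 and Krt7 did not hold TATAAA, and 13.6% of the 32851 RefSeq windows of the same length do. The AP-1 letters TGANTCA, searched on both strands, occurred in none of these 3, against 7.81% of all windows. Pairs of GGAA on either strand whose first bases are no more than 20 apart were also absent from all 3, against 43.8% of all windows. RefSeq windows were matched for 6 of the 10 keratins, the others being Krt5, Krt14 and Krt20. In these, the single GGAA sites that lie in such a pair numbered 2 for Krt5, 2 for Krt14 and 5 for Krt20. TATAAA occurred once for Krt20, with its first base at -29 from the listed start, and TGANTCA in none. The start site listed for Krt14 lies 1480 bases inside the gene's annotated span, and its window is not shown.

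Krt7, the type II keratin of ductal and glandular epithelia, read 6870 and 8260 against 4880 and 5870. The groups did not overlap after normalization. The log2 fold change was 0.49 ± 0.15 (SE; 95% interval 0.16 to 0.82), with an unadjusted p of 0.00723 and an adjusted p of 0.919 by limma. Krt19, a type I keratin of ductal epithelia that lacks the usual tail domain, read 884 and 958 against 622 and 609, again with no overlap. Its log2 fold change was 0.57 ± 0.20 (SE; 95% interval 0.14 to 1.00), with an unadjusted p of 0.0142 and an adjusted p of 0.985 by limma. On the deposited values both genes overlapped, since negative replicate 2, the array with the trimmed mean of 345, read 7259 for Krt7 and 856.3 for Krt19. Krt20, a type I keratin of intestinal and urothelial lining cells, missed the filter, with 14.4 and 11 against 1.25 and 3.28, and was not tested.

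**Figure D2:**
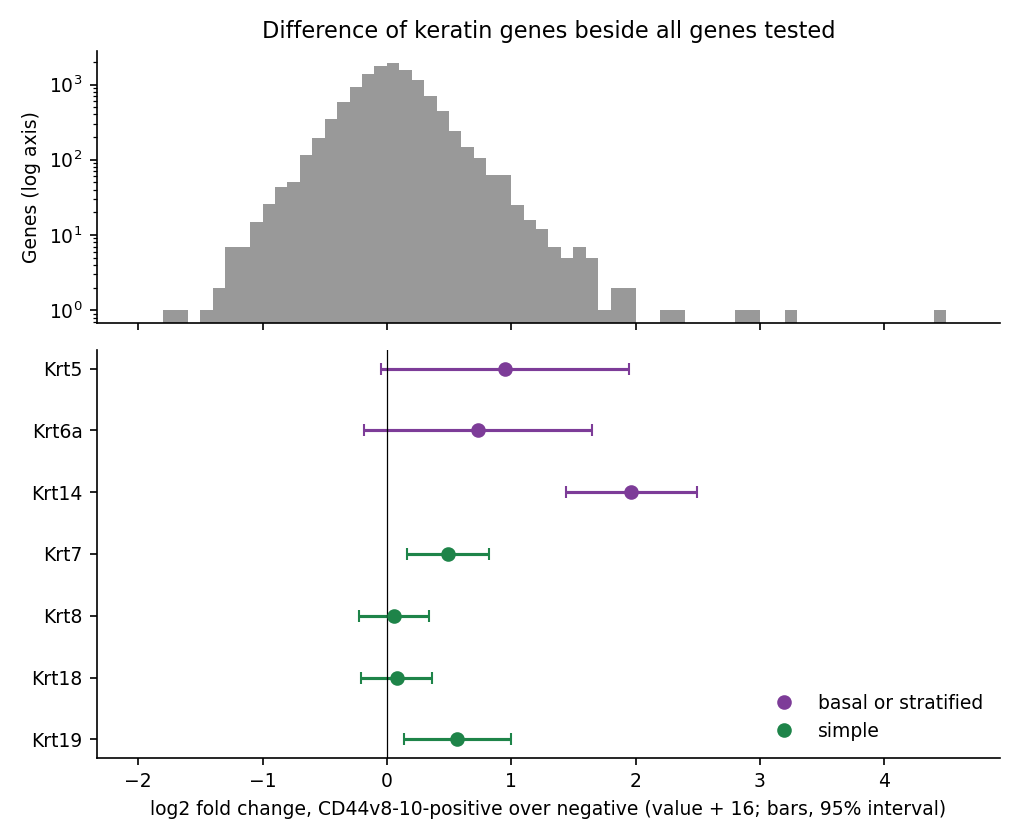
Upper panel: number of genes (log axis) by log2 fold change over all 11956 genes tested. Lower panel: log2 fold change of the 7 keratins tested, with 95% intervals from limma; the interval of Krt14 lies above 1, those of Krt7 and Krt19 just exclude 0 before adjustment, and those of Krt5, Krt6a, Krt8 and Krt18 span 0.

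Of the 10 keratins, 7 passed the filter with at least 1 probe set, 4 simple and 3 basal or stratified, and 11 of the 17 probe sets passed. Krt14 alone was called, 1 of 7, where 0.0753% of all genes tested were called higher and 0% lower, or 9 genes and 0. With arrays centred on their medians the split was 10 higher and 3 lower. Since Krt5 and Krt6a reached the filter through their positive arrays, the counts that follow only describe the 7. Groups did not overlap in 5 of the 7, all higher in positive cells, against 18.5% of all genes tested, and over probe sets in 6 of 11, against 16.5%. These counts depended on the scaling. With the same probe sets, 5 of the 7 did not overlap with arrays centred on their medians, 7 with one trimmed mean and 1, Krt14, with no scaling. On the deposited values 2 of the 11 probe sets did not overlap. The shares over all genes under these scalings are not given here. At an unadjusted p under 0.05 there were 3 keratins higher (Krt14, Krt7 and Krt19) and 0 lower, in a background of 2.68% and 1.76%. The 7 log2 fold changes all lay above 0, as did 54.3% of those of all genes. The 4 simple keratins ran from 0.06 to 0.57 with a median of 0.29, which moved between 0.16 and 0.41 as each array was left out (0.18 without positive replicate 2 and 0.16 without negative replicate 1). The 3 basal or stratified keratins ran from 0.73 to 1.97. Their median of 0.95 is the value of Krt5 and so is no exact size either; it was 1.43 without positive replicate 1 and 0.65 without negative replicate 1. Over all genes the median was 0.03, with quartiles of -0.15 and 0.20. With no filter 0 of the 10 were called, where 0.0165% of 18193 genes were. The values which that fit adds for Krt15, Krt17 and Krt20 come from probe sets below the filter level on all 4 arrays, so their directions are not read.

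The direction in which replicates of one group differed turned with the scaling, in the positive cells only with arrays centred on their medians. After quantile normalization all 11 keratin probe sets above the filter read higher in positive replicate 2 than in positive replicate 1, where 48% of the 27022 probe sets did, and in the negative cells 8 of 11 did, against 48.9%. With arrays centred on their medians the counts were 4 of 11 in the positive cells, against 29.9%, and 3 of 11 in the negative cells, against 49.2%. Krt14 then read 737 and 711 within the positive pair, and Krt8 9560 and 8150. On the deposited values the counts were 9 and 11 of 11, against 46.6% and 95.2%.

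Differences between keratins inside one array are free of the brightness of that array, apart from the effects of the pseudocount and of quantile normalization. Each probe set has its own scale, so the difference has no meaning by itself, but its change between groups compares how far each keratin moved. The log2 value of Krt14 minus that of Krt8 was -3.56 and -3.38 against -5.05 and -5.72. Krt14 thus differed between the groups by 1.91 more than Krt8 did, and by 1.89 more than Krt18. On the deposited values, with no scaling, these excesses were 1.74 and 1.63, again without overlap. Krt7 minus Krt8 was -0.26 and -0.10 against -0.66 and -0.56, a change of 0.44. Krt19 minus Krt8 was -3.19 and -3.18 against -3.60 and -3.80, a change of 0.51. Without scaling the changes of Krt7 and Krt19 relative to Krt8 were 0.41 and 0.35, also without overlap, although each gene's own deposited signals overlapped. Krt8 minus Krt18 changed by -0.02, with overlapping values, and without scaling by -0.11, with no overlap, the positive arrays being lower. An exact permutation test of 2 arrays against 2, two-sided, gave 0.333 for each of the 4 differences without overlap, which is the smallest p it allows.

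**Figure D3:**
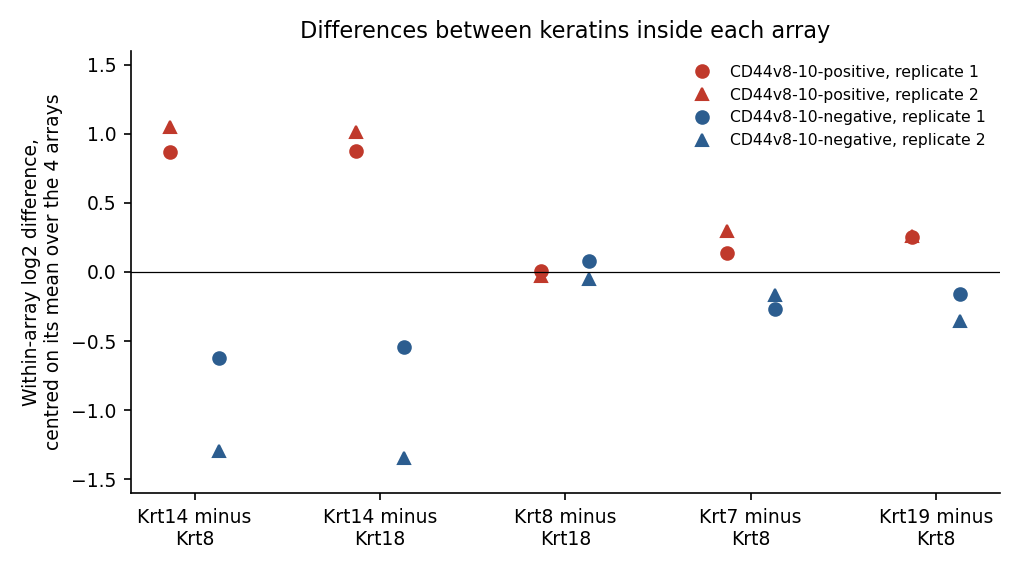
Log2 difference between the signals of 2 keratins inside each array, centred on its mean over the 4 arrays; red symbols are CD44v8-10-positive and blue symbols negative arrays. Krt14 relative to Krt8 and to Krt18 separates the groups by 1.91 and 1.89, Krt7 and Krt19 relative to Krt8 by 0.44 and 0.51, and Krt8 relative to Krt18 leaves them overlapping after quantile normalization.

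The genes whose pattern over the 4 arrays was most like that of Krt14 were Cldn3, a tight junction claudin, Engase, a cytosolic glycosidase, Lama3, the alpha chain of laminin-332, Il1f10, a cytokine of the interleukin-1 family, and Cldn7, another claudin. Likeness was the root-mean-square difference between log2 values centred on each gene's mean over 4 arrays, which was 0.10 for Cldn3, 0.14 for Engase, 0.18 for Lama3, 0.28 for Il1f10 and 0.31 for Cldn7, against a median of 1.01 over the 11955 other genes. Cldn3 read 2110 and 2220 against 609 and 490. Krt14 minus Cldn3 overlapped between the groups, which follows from choosing Cldn3 by its likeness on these arrays. Engase and Il1f10 were below the filter level in both negative arrays.

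Besides the 10, the array holds 38 further keratins, of which 13 passed the filter. None was called by limma, against 0.0753% of all genes. An unadjusted p under 0.05 was reached by 2, both above 0, in a background of 2.68% of genes above 0 at that level. Of the 13, 10 lay above 0, against 54.3% of all genes, and 3 below, with a median log2 fold change of 0.29. Krt16, the type I partner of Krt6a that neighbours Krt14 in the chromosome 11 run, read 74.2 and 53 against 41.6 and 12.7. It had 0.96 on the log2 scale (limma unadjusted p 0.0332, adjusted 0.985). Krt80, a type II keratin, read 350 and 515 against 253 and 289, with 0.62 (unadjusted p 0.0244, adjusted p 0.985 by limma). Krt42, next to Krt17 in the same run, read 410 and 593 against 473 and 341, which overlap. The hair keratins Krt31 and Krt32 had log2 fold changes of 0.42 and 0.58 with unadjusted p of 0.217 and 0.0972, and Krt10, Krt81 and Krt88 lay between 0.05 and 0.09.

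Keratin filaments are anchored to the membrane by desmosomes and plakins. Of 14 linker genes tested none was called, against 0.0753% of all genes, and 11 lay above 0 (54.3% of all genes did) and 3 below. An unadjusted p under 0.05 was reached by 4, all above 0, against 2.68% of all genes, and the median was 0.43. The tetraspan desmosome protein Perp read 1550 and 2510 against 895 and 1460 (log2 fold change 0.78, limma adjusted p 0.985). Plectin, Plec, which ties filaments to hemidesmosomes, had 0.31, and dystonin, Dst, a plakin of the same structures, -0.22. The plakophilin Pkp1, named after its values were seen, read 185 and 188 against 74.4 and 74.5, without overlap, and had 1.16 (limma adjusted p 0.278). Of 14 genes on the array that are found with basal keratins in stratified epithelia and wound edges, 9 passed the filter and were tested. Ivl, Lgals7, Dsc3, Col17a1 and Sprr1b did not pass it. Lama3 was called, with 1.66 ± 0.25 (SE, limma adjusted p 0.0302), where 0.0753% of all genes were. Of the 9, 7 lay above 0, against 54.3%, and 2 below, with a median of 0.66. An unadjusted p under 0.05 was reached by 4, all above 0, against 2.68%. The 2 below were Itga6, with 1170 and 1100 against 1310 and 1430, without overlap, and Sprr1a, which overlapped.

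Of 11 tested transcription factors known to act on epithelial keratin genes, 8 lay above 0, against 54.3% of all genes, and 3 below, with a median of 0.07. None was called, against 0.0753%, and 1, above 0, was under 0.05 before adjustment, against 2.68%. Klf5 read 1190 and 1240 against 1230 and 1740 (-0.26), Grhl2 351 and 506 against 416 and 385 (0.07), and Tfap2a 340 and 307 against 325 and 397 (-0.15), and the groups overlapped in each. Trp63, the p53 family factor of basal cells, read 28 and 13.6 against 19.4 and 20.5, close to the filter level, with a log2 fold change of 0.0081 (95% interval -0.92 to 0.93). Ovol1, a zinc finger repressor in epithelia named after its values were seen, had 0.91 (unadjusted p 0.00995, adjusted p 0.98 by limma).

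Among other intermediate filament genes, 6 of 7 tested lay above 0, against 54.3% of all genes, and none was called, against 0.0753%. Vimentin, Vim, the filament protein of mesenchymal cells, was the one below 0: it read 13600 and 11200 against 16400 and 16100, or -0.39 on the log2 scale (limma unadjusted p 0.00757, adjusted 0.919). The within-array difference from Vim was higher in positive cells by 2.36 for Krt14, 0.88 for Krt7, 0.47 for Krt18 and 0.45 for Krt8. Groups did not overlap in any of the 4. Krt18 and Krt8 themselves moved by only 0.08 and 0.06, so most of their change relative to Vim was the lower value of Vim. The nuclear lamin Lmna had 0.01 and Lmnb1 0.46, both with overlapping signals.

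**Figure D4:**
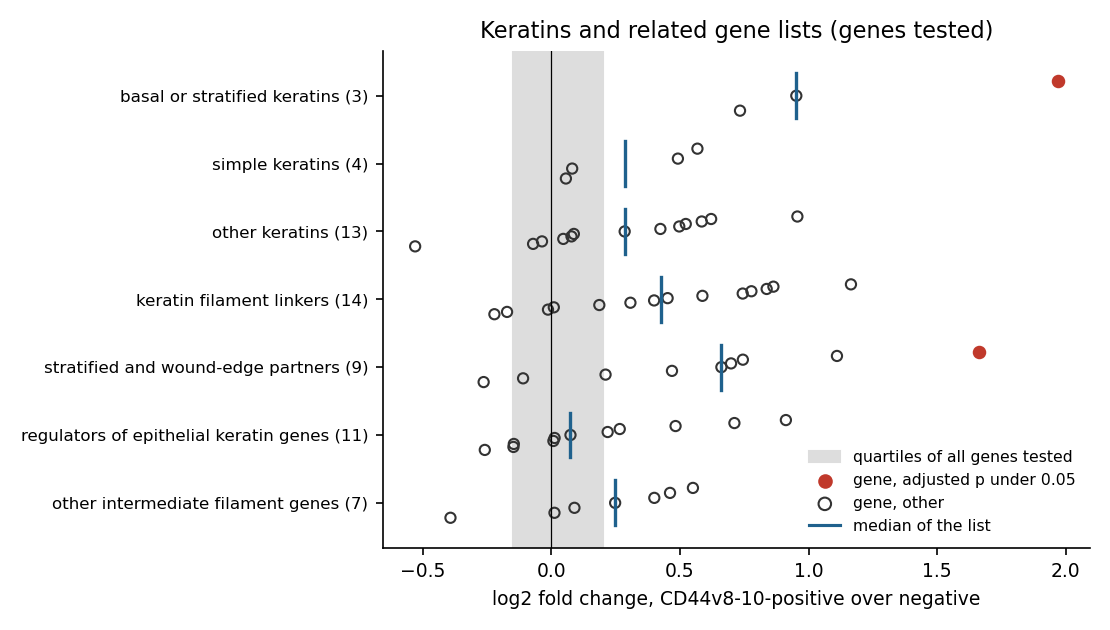
Log2 fold change of each tested gene in the keratin classes and in 5 related lists, with the number of genes in brackets, the list's median as a blue bar and the quartiles of all genes as a grey band. Filled red points are the 2 genes called, Krt14 and Lama3. The bar of the 3 basal or stratified keratins is the value of Krt5, which is no exact size.

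Markers of other cells were set beside these values. Summed over 9 myoepithelial markers on the array, of which 6 passed the filter, the signal was 964 and 1060 against 434 and 338. Without Krt14 and Krt5 the remaining 7 summed to 260 and 171 against 210 and 170, which overlap, and Acta2, the smooth muscle actin of myoepithelial cells, read 99.6 and 71.8 against 86.7 and 61. The 9 luminal markers summed to 638 and 617 against 685 and 798. The 7 fibroblast markers, 3 above the filter, summed to 167 and 150 against 196 and 191, and the 9 macrophage markers, 5 above the filter, to 501 and 637 against 442 and 397. The defining leukocyte gene Ptprc read between 0.825 and 12.6, below the filter level on every array. The 5 endothelial markers, 0 above the filter, summed to 86.6 and 91.6 against 41.8 and 45.6, and the 4 lymphocyte markers, also 0 above the filter, to 53.6 and 41.6 against 61.1 and 34.3. The luminal, fibroblast, macrophage and endothelial sums did not overlap between the groups. Of single genes tested, 18.5% were higher and 13.8% lower without overlap. Among the luminal markers tested, Foxa1 and Pgr were higher and Esr1 and Csn3 lower without overlap, while Gata3 overlapped. The endothelial sum holds only signals from probe sets that missed the filter. The part of these sums in the keratin differences was not tested. In bulk RNA, more cells that carry Krt14 and more Krt14 RNA per cell cannot be told apart.

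**Figure D5:**
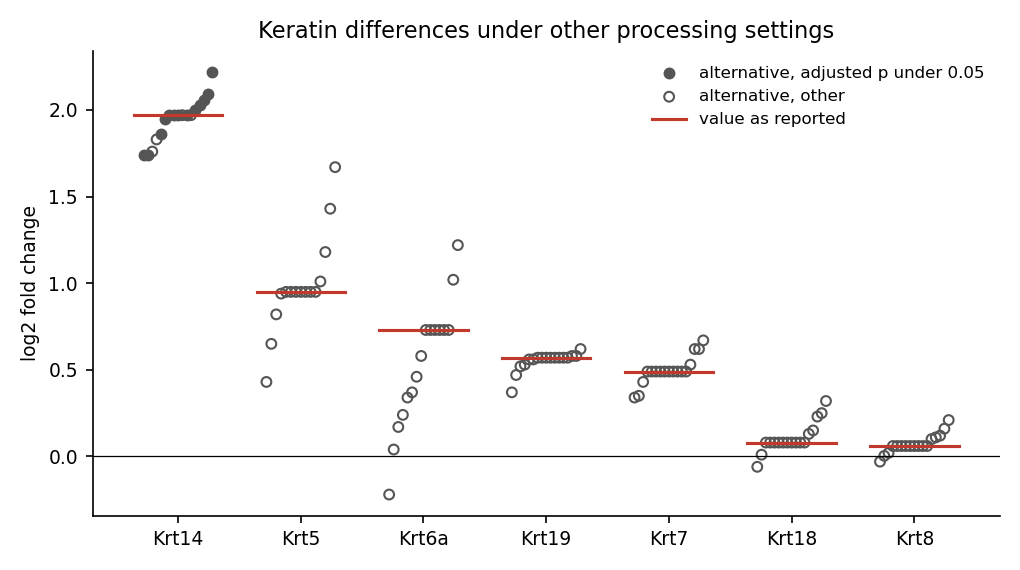
Log2 fold change of the 7 keratins tested, as reported (red line) and under each processing alternative in which the gene was tested (circles, filled where the limma adjusted p was under 0.05). Krt14 was called in 13 of 17 alternatives and stayed between 1.74 and 2.22; no other keratin was called in any, and Krt6a, Krt8 and Krt18 each fell below 0 in 1, Krt6a where its second probe set stood for the gene.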

How the data were processed

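Total RNA of 2 CD44v8-10-positive and 2 negative 4T1 samples was hybridised as biotinylated cRNA, per the labels' protocols. The deposited values are linear intensities, 1 per probe set and array, from 0.1 to 22695.6. GCOS is named in the submitters' processing notes without a role, and how they were summarised, background corrected and scaled is not given in the sources used. Because the trimmed means differed, arrays were quantile normalized, 64 control probe sets were removed, log2(value + 16) was taken, and probe sets with a mean below the 40th percentile (a signal of 19.4) were left out. Each gene was represented by its probe set with the highest mean. Gene names came from the platform annotation held by GEO; all 10 keratins matched the RefSeq gene table by gene number, with 0 symbols changed. Groups were fitted with lmFit and eBayes with a trend on intensity (limma 3.58.1, R 4.3.3, 12.2 degrees of freedom). The fit was also run on simulated data with independent noise on each array and no difference in array brightness. That run cannot show how the calls depend on scaling or on effects shared by a whole array. Alternatives were other scalings, pseudocounts, filters, probe set summaries and variance priors, a replicate block, and leaving out each array.

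The keratins, lists and tests were chosen with earlier results of these data known. The rule for named genes took all 10 keratins and the 8 further keratins above the filter with the highest mean signal. It also took up to 4 called members of each list, or otherwise its 3 with the highest mean signal, and the 5 genes most like Krt14. Pkp1, Trp63, Ovol1, the wound-edge genes other than Lama3 and the cell markers given one by one were added after their values were seen. Protein sequences named in the plan are not used here.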

Additional observations from a re-analysis of the deposited data

How the results depend on the processing

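Krt14 kept its direction in all 17 alternatives and its call in 13. It lost the call with no scaling between arrays (log2 fold change 1.76, limma adjusted p 1), with no filter (1.97, 0.204), without the intensity trend (1.97, 0.245) and without positive replicate 2 (1.83, 0.0838), and in these 4 the number of keratins called was 0. Leaving out each array gave 1.74 to 2.22 for Krt14, 0 to 1 keratins called and 6 to 16 genes called in all; the count of 16 came without positive replicate 1. In total 9 genes were called as reported, 3 with no scaling, 3 with no filter and 2 without the trend. The replicate block gave 18 genes, Krt14 at a limma adjusted p of 0.000328, and changed no other keratin call. Deviations of same-numbered arrays correlated at 0.116, and with 2 numbers and no shared day in the labels they were not treated as pairs. The sign of 3 values turned: Krt6a was -0.22 without positive replicate 2, where its second probe set stood for the gene (0.18 with all arrays; the first gave 0.48 without that array), and Krt8 and Krt18 were -0.03 and -0.06 without negative replicate 1. Leaving out each array gave -0.22 to 1.02 for Krt6a over both probe sets (0.37 to 1.02 for the first alone), -0.03 to 0.16 for Krt8 and -0.06 to 0.25 for Krt18. The median of the simple keratins was 0.44 with one trimmed mean, 0.49 with no filter (5 genes) and 0.12 with every probe set on its own. That of the basal or stratified keratins was 1.67 with a pseudocount of 1, 0.43 with 64, and 1.97 with the filter at the 60th percentile, which left Krt14 alone. Leaving out each array gave medians of 0.16 to 0.41 and 0.65 to 1.43. With no scaling the median of all genes was -0.15 in place of 0.03. The cause of the lost calls was not tested. The within-array differences of Krt14 from Krt8 and Krt18 kept their sign in the 10 alternatives run for them. An array-wide factor nearly cancels from them, so median centring, no scaling and one trimmed mean are not separate checks. These gave 1.74, 1.74 and 1.73 for Krt8, and 1.63, 1.63 and 1.62 for Krt18. Krt5 and Krt6a, with negative signals mostly under the filter level, have no exact fold.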
